A study of Mus musculus with 4 samples.

Results

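The chemokines described here are 10 secreted or membrane-anchored attractants of leukocytes that carcinoma cells can make: Cxcl1, Cxcl2, Cxcl3, Cxcl5, Cxcl10, Cxcl16, Ccl2, Ccl5, Ccl20 and Cx3cl1. They were chosen by name, by the leukocyte each attracts, with earlier results of these data known. Joining Ensembl identifiers to symbols gave 10 of the 55385 genes in the table. RNA was sequenced in bulk from 4TO7 cells, a mouse mammary carcinoma line, taken from tumors in Balb/c mice. The resistant group has 2 libraries, from tumors labelled resistant to anti-PD-L1 (an antibody against the checkpoint ligand PD-L1), and the control group has 2. Tumors had been digested with hyaluronidase, collagenase, dispase and DNase before RNA was extracted. The treatment label of all 4 samples reads Untreated, while their treatment protocol names the antibody in vivo for all 4, so the treatment of the control tumors is unresolved. The labels give no age, no genotype beyond the line and the strain, and no statement of which animal each library came from, so p-values measure the spread between these samples, which may be in part technical. In bulk RNA, fewer cells of a type and less RNA per cell cannot be told apart.

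Chemokines guide leukocytes through receptors on those cells. Ligands with a glutamate-leucine-arginine motif just before the first cysteines, here Cxcl1, Cxcl2, Cxcl3 and Cxcl5, act on CXCR2 and are known for recruiting neutrophils and myeloid suppressor cells to tumors. Cxcl10 acts on CXCR3 and Cxcl16 on CXCR6, receptors of activated T cells and NK cells, while Ccl2 acts on CCR2 of monocytes, Ccl5 attracts T cells and macrophages, Cx3cl1 acts on CX3CR1 and Ccl20 on CCR6. Many of these genes are textbook targets of NF-kappaB, a transcription factor activated by IL-1, TNF and Toll-like receptors, and Cxcl10 is also a target of interferons.

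The motif that sets the CXCR2 ligands apart was read from the coding sequence of GENCODE M21 transcripts (GRCm38). The following stretches, 5′ to 3′, show the Glu-Leu-Arg codons in capitals, with the first cysteine codon directly after them. The capitals start at codon 30 in Cxcl1, 33 in Cxcl2, 33 in Cxcl3 and 50 in Cxcl5, and the other 6 chemokines had no such stretch.
Cxcl1: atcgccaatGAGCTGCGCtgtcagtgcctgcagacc
Cxcl2: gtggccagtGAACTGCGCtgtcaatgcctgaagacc
Cxcl3: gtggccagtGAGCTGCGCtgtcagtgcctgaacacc
Cxcl5: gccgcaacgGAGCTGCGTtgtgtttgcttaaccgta

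The promoters of 4 of the genes that fell are shown because the same 9 letters recur in 3 of them. They come from RefSeq on GRCm38.p6, as 200 bases from position -230 to -31 relative to the RefSeq start, each on the strand of its gene: Cxcl1 at chr5:90891015-90891214 (+), Cxcl2 at chr5:90903669-90903868 (+), Cxcl3 at chr5:90785871-90786070 (+) and Cxcl10 at chr5:92348920-92349119 (-). Capitals mark matches to an NF-kappaB motif on either strand and, in Cxcl10, also the match to the interferon-stimulated response element, which is the first run of capitals there.
Cxcl1: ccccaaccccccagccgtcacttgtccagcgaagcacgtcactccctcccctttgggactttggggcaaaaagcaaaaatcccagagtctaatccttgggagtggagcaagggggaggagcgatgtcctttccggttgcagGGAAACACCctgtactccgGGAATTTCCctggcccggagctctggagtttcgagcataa
Cxcl2: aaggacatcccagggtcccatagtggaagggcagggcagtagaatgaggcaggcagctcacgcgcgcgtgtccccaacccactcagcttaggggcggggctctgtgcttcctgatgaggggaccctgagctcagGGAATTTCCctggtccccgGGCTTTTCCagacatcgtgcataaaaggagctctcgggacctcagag
Cxcl3: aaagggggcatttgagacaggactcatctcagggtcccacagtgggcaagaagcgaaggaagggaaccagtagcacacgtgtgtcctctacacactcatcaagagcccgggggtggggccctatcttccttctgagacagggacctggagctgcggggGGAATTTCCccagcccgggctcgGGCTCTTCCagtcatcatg
Cxcl10: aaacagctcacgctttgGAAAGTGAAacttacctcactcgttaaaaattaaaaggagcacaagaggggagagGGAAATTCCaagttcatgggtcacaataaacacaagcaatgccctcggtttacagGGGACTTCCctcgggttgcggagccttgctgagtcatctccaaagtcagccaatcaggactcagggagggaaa

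The NF-kappaB motif searched was GGNNNTTCC on both strands, over the 250 bases before the RefSeq start. The promoter table matched 6 of the 10 chemokines (Cxcl1, Cxcl2, Cxcl3, Cxcl10, Cx3cl1 and Ccl20), and all 6 held a match, against 15.7% of 32851 promoters. The share was 18.5% among 13064 promoters of the genes tested below and 18.8% among 597 promoters of genes that fell in resistant cells. GGAATTTCC, which reads the same on both strands, lay at -70 to -62 in Cxcl1, at -96 to -88 in Cxcl2 and at -72 to -64 in Cxcl3. Cxcl10 held GGAAATTCC at -158 to -150 and GGGACTTCC at -103 to -95. Cx3cl1, which did not pass the test below, held GGCTCTTCC at -71 to -63, the same letters that Cxcl3 held at -49 to -41. In Ccl20 the match was GGAAAACCC at -80 to -72.

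The interferon-stimulated response element (GAAANNGAA, both strands) was found in 1 of the 6 promoters, that of Cxcl10, as GAAAGTGAA at -213 to -205. It was in 7.13% of all promoters, 6.15% of those of tested genes and 15.6% of those of genes that fell. An AP-1 motif (TGANTCA, both strands) was found in Cxcl10 alone of the 6, against 6.75% of all promoters, and a C/EBP motif (TTNNGNAA, both strands) in 2 of the 6, against 36.8%. One C/EBP match in Cxcl10, at -217 to -210, overlaps its interferon element. These matches describe letters in a window and were not tied to binding by any measurement here.

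Levels are given as normalized counts, which are the reads of a gene divided by a size factor for each library, and compared as log2(normalized count + 1), resistant minus control, so that the change of low genes is understated. Differences were tested with limma over the 14238 genes whose mean reached 10 normalized counts, with Benjamini-Hochberg adjustment and a threshold of 0.05. A gene "fell" or "rose" in resistant cells where its adjusted p passed that threshold. 9 of the 10 chemokines were tested, each with a mean above 10 in both groups, and Ccl20 was too low. 6 of the 9 fell and 0 rose, while 4.73% of all genes tested fell and 5.32% rose. Both resistant libraries were below both controls for 7 of the 9, a pattern found in 28.3% of all genes tested, and above both for 0 of the 9, against 28.4%. The median log2 fold change was -1.01 over the 9 chemokines and 0.0023 over all genes tested. Because the chemokines were chosen with earlier results of these data known, these comparisons describe them and are no test of the set.

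**Figure D1:**
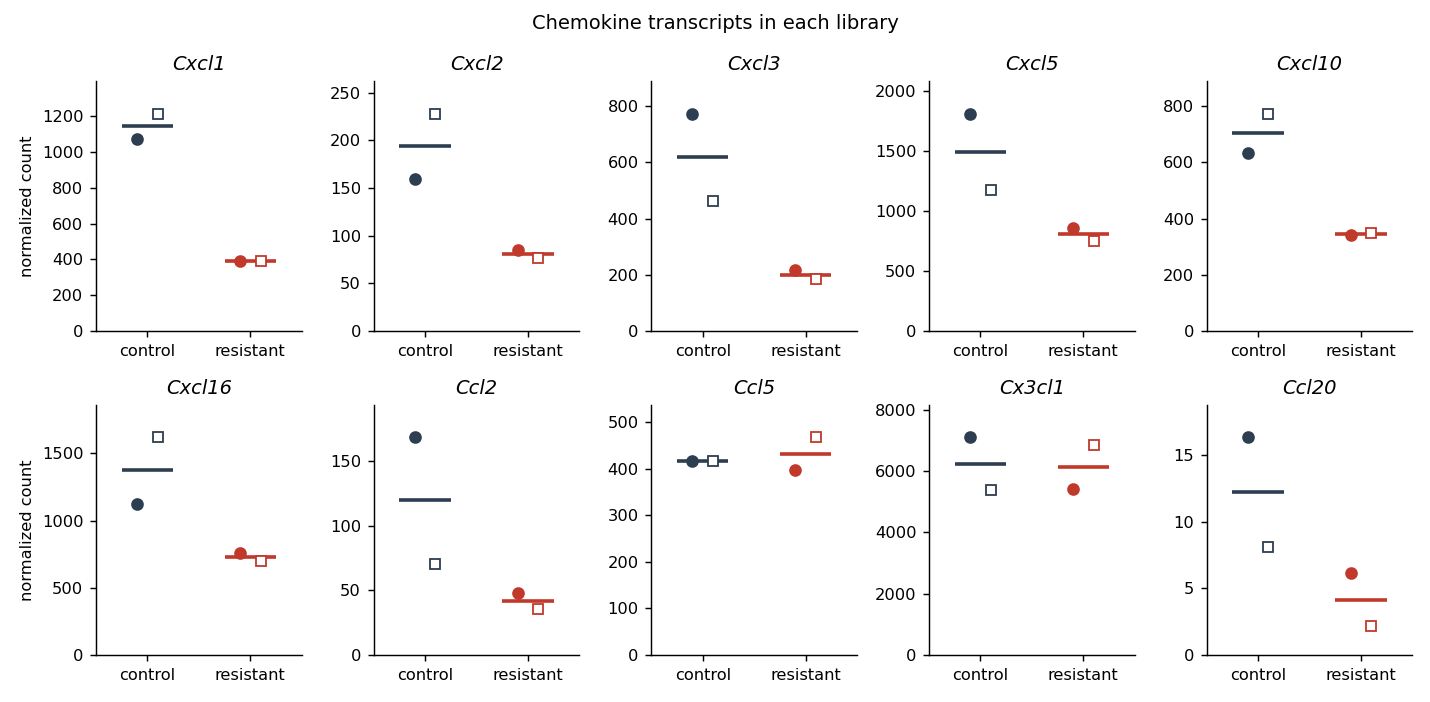
Normalized counts of each chemokine in each library, with a linear axis from 0 in each panel. Circles are replicate 1, open squares replicate 2 and bars the mean of the 2 libraries of a group. In Cxcl1 the resistant libraries lie at 393.4 and 389.4 and the controls at 1072 and 1212, whereas in Ccl5 and Cx3cl1 the groups overlap.

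All 4 CXCR2 ligands fell. Cxcl1 (ENSMUSG00000029380.11, chr5:90891241-90893115, + strand, GRCm38), a chemoattractant of neutrophils, had 1072 and 1212 normalized counts in the control libraries and 393.4 and 389.4 in the resistant ones. The resistant libraries were nearly equal and lay well below both controls. Its mean was 391 ± 2.84 in resistant and 1142 ± 99.2 in control cells (SD, n = 2), 2.91-fold lower in resistant cells. The log2 fold change was -1.54 ± 0.14 (SE; 95% interval -1.87 to -1.21; limma adjusted p = 0.00107). Cxcl1 ranked 98 by p among all genes tested, and it passed the threshold under each of the 14 alternative analyses.

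Cxcl3 (ENSMUSG00000029379.10, chr5:90786103-90789600, + strand) encodes a close relative of Cxcl1 and Cxcl2. It had 772 and 463 normalized counts in control replicates 1 and 2, and 217 and 184 in the resistant replicates. The controls differed 1.67-fold from each other, and the groups did not overlap. The log2 fold change was -1.57 ± 0.26 (SE; 95% interval -2.17 to -0.98; limma adjusted p = 0.011). Without a filter on low genes the adjusted p was 0.0835, and without the mean-variance trend it was 0.0668.

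Cxcl2 (ENSMUSG00000058427.10, chr5:90903871-90905938, + strand), a neutrophil attractant also made by macrophages, was the lowest of the 4. Its control libraries had 159 and 228 normalized counts, and its resistant libraries 85.6 and 77.2. The groups did not overlap, and the higher control was here replicate 2. The log2 fold change was -1.22 ± 0.25 (SE; 95% interval -1.81 to -0.63; limma adjusted p = 0.0257). The call ended without resistant replicate 1 (adjusted p = 0.123) or resistant replicate 2 (adjusted p = 0.181).

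Cxcl5 (ENSMUSG00000029371.7, chr5:90759360-90761624, + strand), an epithelial neutrophil attractant, had the highest counts of the 4. They were 1811 and 1174 in the control libraries and 861 and 752 in the resistant libraries. Every resistant library was below every control, with a smaller gap than in Cxcl1. The log2 fold change was -0.86 ± 0.21 (SE; 95% interval -1.34 to -0.37; limma adjusted p = 0.0424). Leaving out control replicate 1 gave -0.54 with the call kept, and leaving out resistant replicate 1 or 2 gave adjusted p = 0.0924 and 0.199. With a filter at a mean of 50 the adjusted p was 0.0528.

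Added together without Ppbp, these 4 CXCR2 ligands had 3815 and 3077 normalized counts in control cells and 1557 and 1403 in resistant cells. The ratio of control to resistant means was 2.33 for these 4 ligands. As RPM of the counted reads, they made up 80.1 (exact binomial 95% interval 77.6 to 82.6) and 66.1 (63.7 to 68.5) in the controls, and 32.5 (30.9 to 34.2) and 28.6 (27.1 to 30.2) in the resistant libraries. These intervals hold counting error alone and no variation between libraries. Reads amplified by PCR and not tagged by molecule may also be copies. The intervals of the resistant libraries lay below those of the controls. Within each group the intervals of the 2 libraries did not overlap each other either. Libraries of 1 group thus also differed by more than these intervals, which such copies may make too narrow. Of all counts of the 10 chemokines, the CXCR2 ligands took 28.7% and 27.1% in the controls and 18.3% and 14.3% in the resistant libraries.

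Both attractants of activated T cells and NK cells fell. Cxcl10 (ENSMUSG00000034855.13, chr5:92346638-92348889, - strand), the interferon-induced ligand of CXCR3, had 633 and 774 normalized counts in the control libraries and 343 and 351 in the resistant ones. As in Cxcl1, the resistant libraries were closer to each other than the controls were. The log2 fold change was -1.01 ± 0.16 (SE; 95% interval -1.39 to -0.63; limma adjusted p = 0.011). The call ended without resistant replicate 1 (adjusted p = 0.081) or 2 (adjusted p = 0.0799) and without a filter on low genes (adjusted p = 0.0604), while the fold change stayed between -1.15 and -0.87 as each library was left out.

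Cxcl16 (ENSMUSG00000018920.11, chr11:70453983-70459984, - strand) is made as a membrane protein that ADAM10 can shed, and it also takes up oxidized lipoprotein. It had 1127 and 1620 normalized counts in the control libraries and 759 and 699 in the resistant libraries, without overlap. The log2 fold change was -0.89 ± 0.19 (SE; 95% interval -1.32 to -0.46; limma adjusted p = 0.0263). Without resistant replicate 1 or 2 the adjusted p was 0.0808 and 0.140.

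The monocyte attractant Ccl2 (ENSMUSG00000035385.5, chr11:82035571-82037453, + strand) had 168 and 70.6 normalized counts in the control libraries and 47.9 and 35.4 in the resistant ones. The groups did not overlap, but the controls differed 2.38-fold. Its log2 fold change of -1.38 ± 0.42 (SE; 95% interval -2.37 to -0.40) was of the size seen in the CXCR2 ligands that fell. It did not pass the test (limma adjusted p = 0.0849). Without control replicate 2, the lower control, it was -2.003 with adjusted p = 2.35e-08, and without control replicate 1 it was -0.76 and missed the threshold.

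Ccl5 and Cx3cl1 did not pass the test. Ccl5 (ENSMUSG00000035042.2, chr11:83525778-83530518, - strand), a T cell attractant, had 417.9 and 417.5 normalized counts in the control libraries and 397 and 468 in the resistant ones, which lie on both sides of the controls. Its log2 fold change was 0.05 ± 0.16 (SE; 95% interval -0.33 to 0.43; limma adjusted p = 0.892). The lower end of that interval lies above the log2 fold changes of the 6 chemokines that fell, although a difference between genes was not tested.

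Cx3cl1 (ENSMUSG00000031778.13, chr8:94772009-94782427, + strand), also called fractalkine, is anchored in the membrane by a mucin stalk and shed by ADAM10 and ADAM17. It had the highest counts of the 10, with 7098 and 5372 in the control libraries and 5399 and 6849 in the resistant ones. The groups overlapped, and the log2 fold change was -0.02 ± 0.17 (SE; 95% interval -0.41 to 0.37; limma adjusted p = 0.951). Cx3cl1 made up 53.5% and 47.4% of all counts of the 10 chemokines in the controls and 63.4% and 69.8% in the resistant libraries. Per kilobase of exon those shares were 36.9% and 32.02%, against 45.6% and 52.0%.

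Ccl20 (ENSMUSG00000026166.14, chr1:83116766-83119167, + strand), the CCR6 ligand, was close to the limit of detection and was not tested. It had 17 and 8 reads in the control libraries and 6 and 2 in the resistant ones. The summed ratio of control to resistant was 2.94, with an exact 95% interval of 1.29 to 7.55 for counting error only, and no replicate check was made of it.

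**Figure D2:**
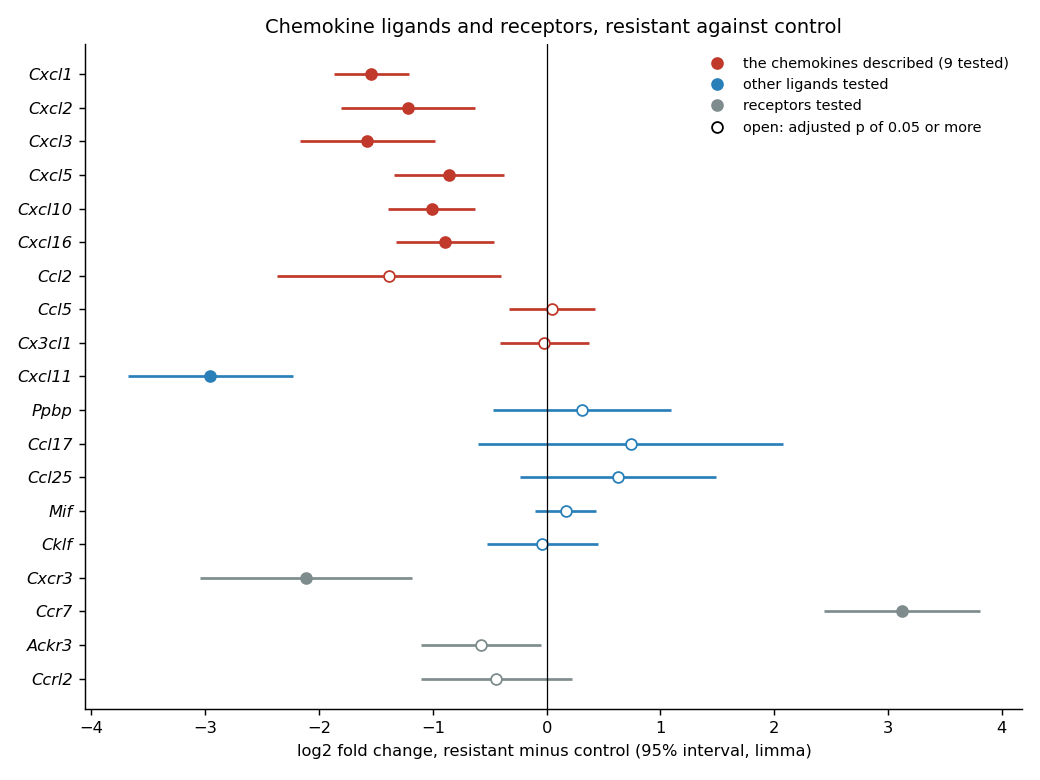
Log2 fold changes (resistant minus control) from limma with 95% intervals for the chemokines described, the other chemokine ligands tested and the receptors tested. Filled points passed an adjusted p of 0.05, and the 6 filled red points lie between -1.57 for Cxcl3 and -0.86 for Cxcl5.

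The control libraries differed from each other in opposite ways for different chemokines. Control replicate 1 was above control replicate 2 for Cxcl3 (1.67-fold), Cxcl5 (1.54-fold), Ccl2 (2.38-fold), Cx3cl1 (1.32-fold) and Ccl20 (2.02-fold). Control replicate 2 was above control replicate 1 for Cxcl1 (1.13-fold), Cxcl2 (1.43-fold), Cxcl10 (1.22-fold) and Cxcl16 (1.44-fold). The ratio of Cxcl3 to Cxcl1 was 0.720 and 0.382 in the controls, and in the resistant libraries it was 0.552 and 0.474, between those values. Leaving out each library in turn moved the fold changes of Cxcl3, Cxcl5 and Ccl2 furthest from 0 without control replicate 2, and those of Cxcl1, Cxcl2, Cxcl10 and Cxcl16 without control replicate 1. Leaving out either resistant library left 2 of the 9 chemokines that fell, namely Cxcl1 and Cxcl3 in both cases. Leaving out control replicate 1 gave 6, and leaving out control replicate 2 gave 7. With all libraries but no filter on low genes 1 of the 9 fell (Cxcl1), and with no trend 2 fell (Cxcl1 and Cxcl10). When a library is left out, the remaining library of a group is assumed to vary like the other group, and the controls varied more than the resistant pair (SD of the log2 difference over genes 0.45 against 0.31).

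**Figure D3:**
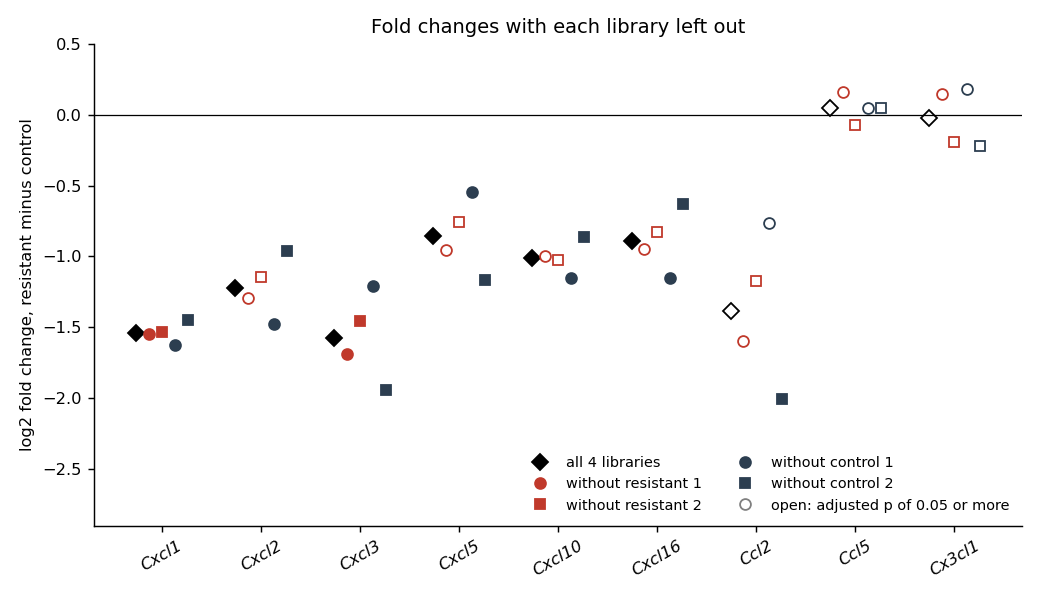
Log2 fold change of each tested chemokine with all 4 libraries (diamonds) and with each library left out. Filled symbols passed an adjusted p of 0.05. Cxcl1 and Cxcl3 stay filled throughout, and Cxcl1 moves between -1.63 and -1.45.

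Levels were compared between genes as normalized counts per kilobase of annotated exon. In control cells the level of Cx3cl1 was 1586 ± 311 (SD, n = 2), followed by Cxcl5 at 801 ± 242, Cxcl1 at 609 ± 52.9, Cxcl16 at 455 ± 115, Ccl5 at 435 ± 0.245 and Cxcl10 at 312 ± 44.1. Cxcl3 at 177 ± 62.5, Ccl2 at 105 ± 60.6, Cxcl2 at 93.7 ± 23.4 and Ccl20 at 8.59 ± 4.11 came last. The libraries overlapped between Cxcl5 and Cxcl1, between Cxcl16 and Ccl5, between Cxcl3 and Ccl2, and between Ccl2 and Cxcl2, so those neighbours have no order beyond their spread. In resistant cells Ccl5 stood in second place at 451 ± 51.7, overlapping Cxcl5 at 433 ± 41.5, below Cx3cl1 at 1558 ± 261. Then came Cxcl16 at 241 ± 14.02, Cxcl1 at 209 ± 1.51, Cxcl10 at 154 ± 2.30 and Cxcl3 at 57.4 ± 6.59. The lowest levels per kilobase were those of Cxcl2 at 39.4 ± 2.86 and Ccl2 at 36.6 ± 7.77, which overlapped, and of Ccl20 at 2.91 ± 1.98.

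**Figure D4:**
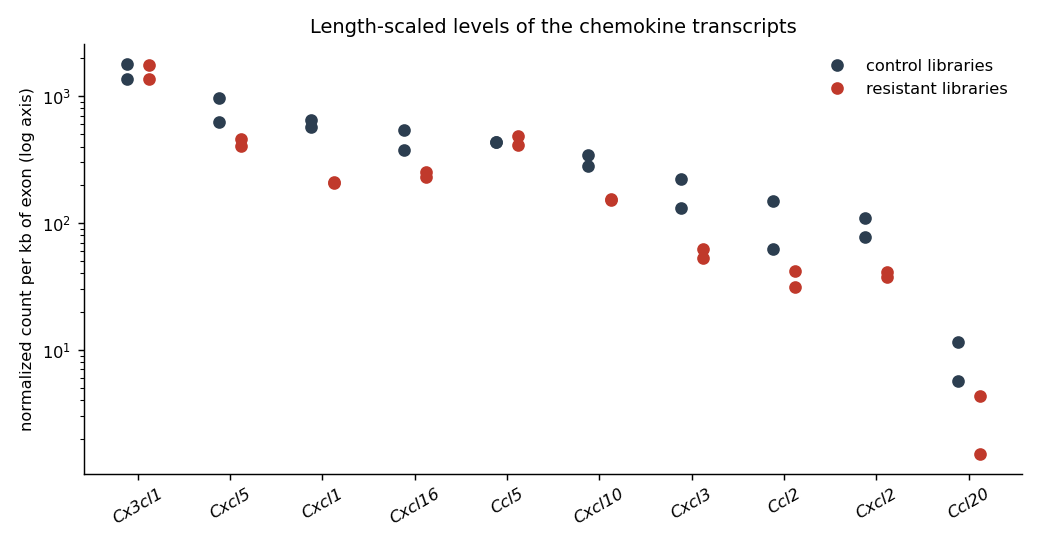
Normalized counts per kilobase of annotated exon for the 10 chemokines in each library, on a log axis. Cx3cl1 is on top in both groups. Ccl5 lies below Cxcl1 in both control libraries and above it in both resistant libraries.

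Of 30 other chemokine ligands on a list, 6 were tested, 1 fell and 0 rose, and their median log2 fold change was 0.24. The one that fell was Cxcl11, a CXCR3 ligand like Cxcl10, which the annotation lists as a polymorphic pseudogene. It had 98.9 and 108.9 normalized counts in the control libraries and 11.2 and 13.9 in the resistant ones. Its log2 fold change of -2.96 ± 0.31 (limma adjusted p = 0.00173) was further from 0 than that of any of the 9 chemokines tested.

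The third CXCR3 ligand, Cxcl9, was below the filter, with 11 and 11 reads in the controls and 1 and 3 in the resistant libraries (summed normalized ratio 5.18, exact 95% interval 1.76 to 20.7 for counting error). Ccl4, an attractant of monocytes and T cells, had 14 and 7 reads against 1 and 1 (ratio 9.89, interval 2.42 to 87.0). Ccl7, a CCR2 ligand like Ccl2, had 4 and 10 reads against 0 and 3 (ratio 4.39, interval 1.23 to 23.8). Ccl9 went the other way, with 3 and 4 reads in the controls and 14 and 8 in the resistant libraries (ratio 0.300, interval 0.108 to 0.726). These 4 were picked after their reads were seen.

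The 5 other tested ligands did not pass. Ppbp, the CXCR2 ligand whose gene lies between Cxcl5 and Cxcl3, had 22.1 ± 1.33 normalized counts in control cells and 27.7 ± 1.22 in resistant cells (SD, n = 2), a log2 fold change of 0.31 ± 0.34 (adjusted p = 0.606). Values were 0.74 ± 0.58 for Ccl17 (adjusted p = 0.465), 0.63 ± 0.37 for Ccl25 (0.326), 0.17 ± 0.11 for Mif (0.401) and -0.04 ± 0.21 for Cklf (0.927). Ccl25, a ligand of CCR9, passed as higher (1.19) without control replicate 2. 9 ligands had no read in any library: Cxcl17, Pf4, Xcl1, Ccl1, Ccl11, Ccl12, Ccl19, Ccl21a and Ccl26.

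The receptors of these ligands were mostly at or near 0. Of 23 listed, 7 had no read in any library (Cxcr1, Cxcr2, Cxcr6, Ccr6, Ccr8, Xcr1 and Ackr1) and 4 were tested, of which 1 rose and 1 fell. Ccr7, a receptor that guides cells to lymph nodes, had 24.98 and 21.2 normalized counts in the controls and 171 and 253 in the resistant libraries, a log2 fold change of 3.12 ± 0.29 (limma adjusted p = 0.00108). Cxcr3, the receptor of Cxcl10 and Cxcl11, had 172.9 and 97.8 against 21.4 and 39.7, a log2 fold change of -2.12 ± 0.40 (limma adjusted p = 0.0191). The call of Cxcr3 ended without resistant replicate 1, with no filter on low genes and with no trend. Ackr3, an atypical receptor of Cxcl12, had 3190 ± 1132 normalized counts in controls and 2079 ± 229 in resistant cells (SD, n = 2), and it passed (-0.94) without control replicate 2 but not with all libraries (-0.58 ± 0.23, adjusted p = 0.156). Ccrl2 also did not pass (-0.44 ± 0.28, adjusted p = 0.370).

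Among 15 NF-kappaB subunits, inhibitors and kinases, all tested, 5 fell and 0 rose, and the median log2 fold change was -0.21. Nfkbia, the inhibitor that NF-kappaB itself induces, had 4717 ± 270 normalized counts in control and 2163 ± 212 in resistant cells (SD, n = 2; log2 fold change -1.13 ± 0.12, limma adjusted p = 0.00173). The subunits Relb (-0.65 ± 0.12, adjusted p = 0.0198) and Nfkb1 (-0.54 ± 0.11, adjusted p = 0.0246) fell by less, as did Nfkbiz, a nuclear cofactor of NF-kappaB (-0.81 ± 0.18, adjusted p = 0.0305). The fifth, Rela, named after its value was seen, had -0.48 ± 0.11 (adjusted p = 0.0354). Nfkb2 just missed the threshold (-0.39 ± 0.10, adjusted p = 0.0515). The count that fell was 1, namely Nfkbia, with no filter on low genes and with no trend. Leaving out either resistant library also ended all these calls but that of Nfkbia. Leaving out either control library added calls, in both directions without control replicate 2.

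Of 14 interferon signalling factors, all tested, 4 fell and 0 rose, with a median of -0.29. Irf7, the interferon-induced regulator of type I interferon genes, had 6778 ± 1530 normalized counts in control and 1341 ± 204 in resistant cells (SD, n = 2; log2 fold change -2.33 ± 0.18, limma adjusted p = 0.000587). Stat2 (-1.21 ± 0.11, adjusted p = 0.000936) and Irf9 (-1.16 ± 0.12, adjusted p = 0.00163), which act downstream of the type I interferon receptor, also fell. Irf1, a factor induced by interferon gamma, did not pass (-0.34 ± 0.12, adjusted p = 0.113), nor did the kinase Jak1 (-0.20 ± 0.11, adjusted p = 0.279). The count was 4 without either resistant library, with no filter and with no trend, and it became 5 when control replicate 1 was left out and 7 when control replicate 2 was.

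Of 20 cytokines and receptors that act upstream of chemokine genes, 15 were tested, 2 fell and 0 rose, with a median of -0.27. Tlr3, a sensor of double-stranded RNA, had 1403 ± 272 normalized counts in control and 448 ± 16.2 in resistant cells (SD, n = 2; log2 fold change -1.63 ± 0.17, limma adjusted p = 0.00154). Il1rap, the accessory chain of the IL-1 receptor, had -0.51 ± 0.10 (adjusted p = 0.0245), a call that ended without either resistant library, with no filter and with no trend. Leaving out control replicate 1 gave 3 that fell and 3 that rose, and leaving out control replicate 2 gave 7 and 2. The 2 of highest mean, Tnfrsf1b (0.22 ± 0.10, adjusted p = 0.235) and Csf1 (-0.42 ± 0.18, adjusted p = 0.189), did not pass. Lif, which was higher in resistant cells, just missed the threshold (0.46 ± 0.12, limma adjusted p = 0.0502), while 10 of the 15 tested genes had a negative log2 fold change. The transcript of Il1a was at 3 and 3 reads in the resistant libraries and at 0 in the controls.

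Of 8 factors that bind and destabilize or protect chemokine mRNAs, 1 fell and 0 rose, with a median of -0.02. It was Zfp36, encoding tristetraprolin, which degrades mRNAs with AU-rich elements (-0.58 ± 0.13, limma adjusted p = 0.0353). Khsrp (0.16 ± 0.10, adjusted p = 0.380) and Zfp36l1 (-0.05 ± 0.10, adjusted p = 0.816), of highest mean, did not pass. Of 10 proteases that shed or trim chemokines, 6 were tested, 1 rose and 0 fell, with a median of 0.41. Mmp9, a gelatinase that trims CXC chemokines, had 534 ± 17.8 normalized counts in control and 878 ± 146 in resistant cells (SD, n = 2; 0.71 ± 0.16, limma adjusted p = 0.0353). Adam10, which sheds Cx3cl1 and Cxcl16, had 0.39 ± 0.11 (adjusted p = 0.0661), and Mmp14 had -0.09 ± 0.12 (adjusted p = 0.691). The calls of Zfp36 and Mmp9 ended without either resistant library, with no filter and with no trend. Of the decay factors 3 fell and 1 rose without control replicate 2, and of the proteases 4 rose without control replicate 1 and 3 without control replicate 2.

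**Figure D5:**
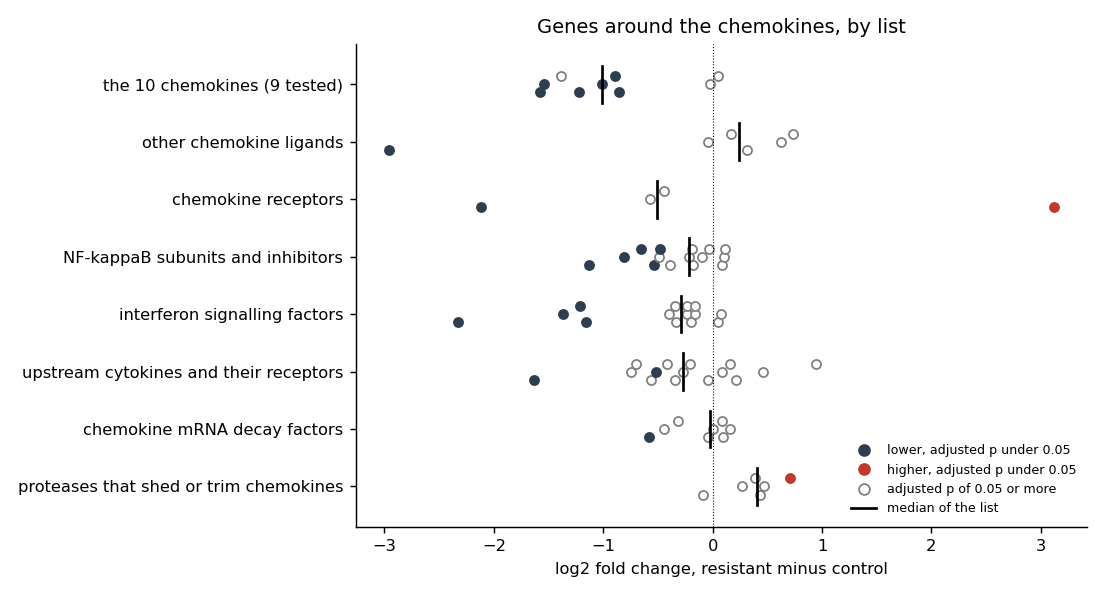
Log2 fold changes (resistant minus control) of the tested genes of each list, with filled points past an adjusted p of 0.05 and a bar at each list's median. Of the 8 lists drawn, the 10 chemokines (9 tested) have the lowest median, -1.01, and the proteases the highest, 0.41. The lists were chosen with earlier results of these data known.

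Cxcl5, Cxcl3, Cxcl1 and Cxcl2 lie in 1 cluster at chr5:90759360-90905938, and Cxcl10 lies further along the same chromosome. Leaving aside other chemokine ligands (Ppbp there, Cxcl11 near Cxcl10 and Ccl17 near Cx3cl1, described above), 11 tested genes lay within 500 kb of the cluster, of which 1 fell and 1 rose, with a median of -0.31. Both encode ligands of the EGF receptor: Btc fell (-1.07 ± 0.22, limma adjusted p = 0.0246) and Areg rose (1.03 ± 0.21, adjusted p = 0.0234), and both calls ended without either resistant library. Around Cxcl10, where Cxcl11 fell, 0 of 12 tested genes that are not chemokine ligands passed, with a median of -0.09. Around Cxcl16, 1 of 33 such genes fell and 4 rose, and their median was -0.04. Around Ccl5, 1 of 12 fell, namely Slfn2 (-1.06 ± 0.23), whose call ended without resistant replicate 1, and 0 rose. Around Cx3cl1, 0 of 22 fell and 1 rose, and no other gene near Ccl2 was tested.

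Some of these genes share exon sequence with others. Cxcl2 shared 5.84% of its exonic stretches of 50 bases, all with Cxcl3, which also fell. Cxcl3 shared 4.29%, with Cxcl2 and many other genes, Cxcl5 0.693% and Cxcl1 0. The share was highest in Cxcl16, at 16.9%, all with Zmynd15, whose exons overlap it on the other strand by 552 bases. It was 3.59% in Cxcl10, all with Art3, whose exons overlap it on the other strand by 133 bases, and 0 in Ccl2, Ccl5, Cx3cl1 and Ccl20. Zmynd15 itself had 55.4 ± 9.92 normalized counts in controls and 30.9 ± 4.81 in resistant cells (SD, n = 2), far below Cxcl16. The sources used here do not give whether reads were counted by strand.

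The libraries held between 45666470 and 49592054 reads. Carcinoma cell markers were present, with Krt8 at 12649 to 21116 and Cdh1 at 1952 to 2396 normalized counts, while Krt14 was at 0. Of the 9 on that list 8 were tested, and they moved both ways: Krt19 rose (2.97 ± 0.25, limma adjusted p = 0.000812) and Krt7 rose (1.90 ± 0.33, adjusted p = 0.0139), while Epcam (-1.53 ± 0.25, adjusted p = 0.011), Cldn3 (-3.96 ± 0.41, adjusted p = 0.00173) and Cldn7 (-2.61 ± 0.40, adjusted p = 0.00895) fell. The leukocyte marker Ptprc was at 0 to 2.15 normalized counts in every library, and Cd52, C1qa, C1qc, Tyrobp, Cd8a, Cd8b1, Ncr1, Nkg7, S100a9, Cd79b and Ms4a1 were at 0. Pan-leukocyte markers (6 genes, 3 tested, 0 passed) summed to 8995 and 8824 normalized counts in control and 10417 and 10065 in resistant cells, nearly all of it Arhgdib (8764 ± 76.9 and 10049 ± 276), with Coro1a at 50.6 ± 7.31 and 47.4 ± 9.37. The summed macrophage list (13 genes, 2 tested) was 4956 and 7523 in control and 11274 and 10791 in resistant cells, nearly all of it Cd68, which rose, and Cd14, which fell. The neutrophil list (9 genes, 5 at 0) was 801 and 423 against 397 and 396, nearly all S100a8. The T and NK cell list (12 genes, 6 at 0) was 6.72 and 1.01 against 10.2 and 19.3. Most of its resistant sums was Prf1, at 7.13 and 16.1 normalized counts against 2.88 and 0 in the controls. Fibroblast markers (8 genes, 5 tested) summed to 9507 and 6586 against 7492 and 8952, mostly Pdgfra, which did not pass (log2 fold change 0.12 ± 0.19), while Dcn fell (-1.99 ± 0.24, adjusted p = 0.00343) and Pdgfrb rose (1.00 ± 0.20, adjusted p = 0.0252). Col1a2 was at 76.7 in control replicate 2 and at most 1.07 elsewhere. Endothelial markers (7 genes, 2 tested) summed to 84.5 and 52.4 against 171 and 233, mostly Vwf, which rose (2.45 ± 0.38, adjusted p = 0.00895), while Pecam1 had 18.1 ± 4.25 in control and 13.1 ± 0.266 in resistant cells and Erg 3.94 ± 0.136 and 0. The part of these cells in the chemokine values was not tested.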

How the data were processed

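RNA of 4 samples, 2 resistant and 2 control by their source labels, was sequenced in bulk. The deposited values are log2(normalized count + 1), which the authors made using STAR, DESeq2 and mm10 per the submitters' processing notes. Versions, annotation and strand use are not given in the sources used here. Of 55385 identifiers, 55144 matched a symbol and position in GENCODE M21. The scale was read from the values: at a tolerance of 0.01 reads, 100% of values were whole reads times 1 step per library, which also gave the depth.

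The 14238 genes whose mean reached 10 normalized counts were fitted by lmFit and eBayes (trend, group only) of limma 3.58.1, R 4.3.3, on the deposited scale, which already holds the pseudocount of 1, two-sided, with Benjamini-Hochberg adjustment. Intervals are at the 0.95 level. Sequences and motifs were read with Python 3.11.15. The main limma fit was tested on simulated reads with known fold changes, with the same variance setting for all genes and libraries. The other steps were not part of that test.

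The members and lists were chosen with earlier results of these data known, and lists are described by counts and medians with no test. Named were all members, all tested genes of the other ligand list, up to 4 called genes by p and the 2 of highest mean per pathway list, and for markers up to 3 of highest mean and some of those at 0. Further genes outside these rules are also named, among them Rela, Il1a, Lif and several carcinoma cell markers. A gene of the interferon list is counted but not reported here by name. Alternatives were other pseudocounts, filters, scalings, no trend, robust moderation, limma voom on the recovered reads, a replicate block and leaving out each library.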

Additional observations from a re-analysis of the deposited data

How the results depend on the processing

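The number of the 9 tested chemokines that fell was 6, and it stayed at 6 with pseudocounts of 0.5 and 5, equal totals, quantile normalization, robust moderation and limma voom on the recovered reads. It was 5 with a filter at a mean of 50, 1 without a filter, 2 without the trend, and 2 to 7 as each library was left out. None rose under any of these settings. With a replicate block it was 7, Ccl2 passing with adjusted p = 0.0202. With that block 4 NF-kappaB genes and 0 mRNA decay factors fell. Of the upstream cytokines and receptors, 1 fell and 1 rose with that block, and 2 fell and 1 rose with a pseudocount of 5. Whether same-numbered samples share an animal, day or batch is unknown, and deviations of same-numbered libraries correlated at -0.357. Of all genes, 674 fell and 758 rose. These counts were 185 and 126 without a filter and 357 and 266 without the trend. With a replicate block they were 585 and 628, and leaving out each library gave 234 to 1993 that fell and 146 to 2074 that rose. With equal totals, which shifts the median of all genes to -0.04, 799 fell and 657 rose. Single genes, 56 in number, 37 of which had passed, were compared under up to 14 alternatives. The filter at a mean of 50 left out those below it, Cldn3 among them. None that had passed changed sign. Cxcl1, Cxcl11, Ccr7, Nfkbia, Irf7, Stat2, Irf9, Tlr3, Zbtb46, Krt19 and Dcn were among those that passed under all 14. Without a filter 24 of the 37 missed the threshold, and without the trend 19. Genes that had not passed changed sign as follows: as each library was left out, Ccl5 ranged from -0.072 to 0.16, Cx3cl1 from -0.22 to 0.18 and Cklf from -0.23 to 0.15, and Cklf was at 0.020 with quantile normalization. The depth limits Ccl20, Cxcl9, Ccl4 and Ccl7, whose resistant libraries had at most 6 reads.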

Other observations

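Ccr7 was also on the list of dendritic cell markers, whose members moved in different directions. Zbtb46, a transcription factor of conventional dendritic cells, had 318.9 and 328.8 normalized counts in the control libraries and 44.8 and 68.6 in the resistant libraries, and fell (log2 fold change -2.52 ± 0.26, limma adjusted p = 0.00154). Flt3, the receptor of a dendritic cell growth factor, had 5.76 and 6.05 against 12.2 and 31.1 and did not pass the test (1.58 ± 0.54, adjusted p = 0.112). Of the 7 genes on that list, 3 had no read in any library. Pax5, a B cell transcription factor, had 29.8 and 27.2 normalized counts in the controls and 0 and 2.15 in the resistant libraries (adjusted p = 0.0104), while the B cell genes Cd79b and Ms4a1 had no read.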
